A study of Mus musculus with 8 samples.

Results

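The dermal matrix genes described here are 10 genes by which fibroblasts are commonly recognised, namely the collagen genes Col1a1, Col1a2, Col3a1 and Col6a1, the proteoglycan genes Dcn and Lum, the elastic fibre gene Fbn1, the matricellular genes Sparc and Postn, and the receptor gene Pdgfra. They were chosen by name, and their probes were found through the RefSeq accession that the array files give for each probe. All 10 genes had a probe, with 12 probes among the 55681 on the array, and all 10 passed the filter that left 23139 of 36799 genes and other targets for testing. RNA came from the back skin epidermis of newborn (P0) C57BL/6 mice, 4 EED cKO samples and 4 control samples, each labelled as a biological replicate. In EED cKO mice (K14-Cre; EED flox/flox), Cre recombinase expressed from the Krt14 promoter removes Eed, a subunit of the Polycomb repressive complex PRC2, from keratinocytes and not from the fibroblasts below them, and the labels do not give the alleles of the control mice. The epidermis was peeled from the dermis after dispase and dissociated with trypsin, and each sample was hybridized together with a commercial RNA mix, Universal Mouse Reference RNA, on 1 of 8 arrays. The sample carried Cy3 in replicates 1 and 3 of both genotypes and Cy5 in replicates 2 and 4. Every value below is a log2 ratio of sample over reference, so the ratios of different genes are not levels that can be ranked against each other.

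Fibroblasts of the dermis secrete the collagens, proteoglycans and microfibrils that form the connective tissue under the epidermis. Collagen I and collagen III assemble into fibrils, small leucine-rich proteoglycans such as decorin and lumican bind to these fibrils and limit their growth, and fibrillin microfibrils carry elastin. Keratinocytes make much of the basement membrane between epidermis and dermis. A peeled epidermis should hold few fibroblasts, chiefly those that cling to it or enter with the hair follicles, though their number was not measured here.

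The genes did not move together in EED cKO epidermis. Postn and Sparc were lower (1.97-fold and 1.39-fold), Lum and Fbn1 were higher (1.42-fold and 1.23-fold), and the 4 collagen genes, Dcn and Pdgfra did not pass the test. Thus 4 of 10 genes were called at an adjusted p below 0.05 (limma), against 21.7% of all genes and targets tested. Of these, 2 were higher, against 11.8% of all tested, and 2 were lower, against 9.93% of all tested. None of the 10 was both called and changed at least 2-fold, against 1.20% of all tested. The arrays of the genotypes did not overlap for 3 of 10 genes, against 17.2% of all tested. Fbn1, counted in these figures, was dim and entered the test only through EED cKO, where it was higher. With probes required to be well above background on all 8 arrays, Fbn1 was not tested. In that fit 3 of the genes were called, against 23.4% of all tested. The median log2 fold change of the 10 genes was 0.04 and that of all tested was 0.02.

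**Figure D1:**
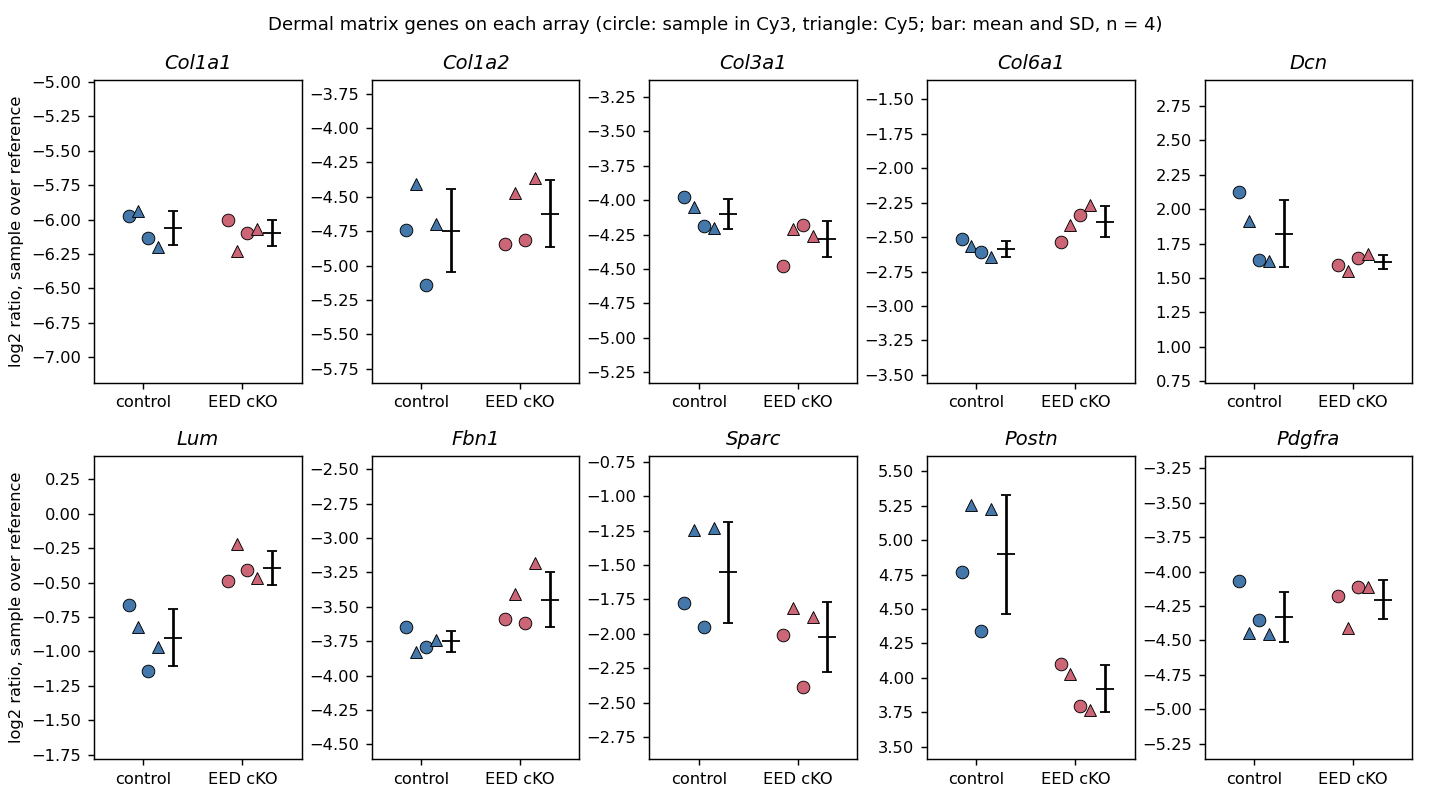
Log2 ratio of sample over reference (vertical axis, the same span of 2.2 in every panel) of the 10 dermal matrix genes on each control and EED cKO array, with circles for samples in Cy3 and triangles for samples in Cy5. Bars give the mean and SD of 4 arrays. The genotypes separate for Lum, Fbn1 and Postn.

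The label was checked first with the targeted gene. Eed had log2 ratios of -1.74, -2.04, -1.78 and -1.66 in EED cKO and -0.18, -0.46, -0.31 and -0.43 in control replicates 1 to 4, a difference of -1.46 (SE 0.09, adjusted p = 2.132e-05, limma). The share of spots well above background in the channel of the sample ran from 51.5% to 65.5%. Markers of keratinocytes, the labelled tissue, averaged a log2 ratio of 3.45 to 4.00 over the 8 arrays, and none of the 13 tested was called, although in the sample channel alone 1 was higher and 5 were lower. All 8 arrays lay on 1 slide with EED cKO in row 1 and control in row 2, so row and genotype cannot be told apart. In the reference channel, the same on every array, the difference between genotypes lay between -0.06 and 0.08 for the 10 genes, and none was called.

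Sex was not balanced between the genotypes. Eif2s3y, a Y-linked gene, had log2 ratios of 2.23 and 2.25 in control replicates 2 and 3 and between -2.86 and -2.53 on the other 6 arrays. With both of these control arrays left out, 2 of the 10 genes were called, Postn and Sparc, against 11.2% of all tested in that fit, and Lum and Fbn1 were not. In RNA from whole epidermis, a different share of a cell type and a different amount of RNA per cell cannot be told apart. Which cells the RNA of the 10 genes came from was not tested.

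The upstream sequences of 3 of the 4 called genes and of Col1a2 are shown because they are where the transcripts of these genes begin, and the genes differ in them. They run from 250 bases before to 50 after the annotated start (RefSeq, GRCm38.p6, 5′ to 3′ on the strand of the gene) at chr3:54360857-54361156 for Postn (+ strand, the second of its 2 annotated starts), chr11:55420031-55420330 for Sparc (- strand), chr2:125506389-125506688 for Fbn1 (- strand) and chr6:4505368-4505667 for Col1a2 (+ strand). Capitals mark TATAAA and CCAAT, searched on both strands, with CCAAT on the opposite strand reading ATTGG.
Postn: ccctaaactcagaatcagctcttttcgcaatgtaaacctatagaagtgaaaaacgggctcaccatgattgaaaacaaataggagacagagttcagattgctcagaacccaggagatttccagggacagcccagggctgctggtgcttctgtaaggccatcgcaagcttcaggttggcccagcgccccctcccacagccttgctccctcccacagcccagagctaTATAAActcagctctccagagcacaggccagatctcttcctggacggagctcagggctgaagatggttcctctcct
Sparc: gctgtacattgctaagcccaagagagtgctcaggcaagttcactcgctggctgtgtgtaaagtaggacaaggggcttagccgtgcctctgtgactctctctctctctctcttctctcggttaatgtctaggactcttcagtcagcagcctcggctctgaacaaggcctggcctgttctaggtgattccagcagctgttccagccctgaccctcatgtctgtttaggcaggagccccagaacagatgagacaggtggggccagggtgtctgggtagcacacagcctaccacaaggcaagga
Fbn1: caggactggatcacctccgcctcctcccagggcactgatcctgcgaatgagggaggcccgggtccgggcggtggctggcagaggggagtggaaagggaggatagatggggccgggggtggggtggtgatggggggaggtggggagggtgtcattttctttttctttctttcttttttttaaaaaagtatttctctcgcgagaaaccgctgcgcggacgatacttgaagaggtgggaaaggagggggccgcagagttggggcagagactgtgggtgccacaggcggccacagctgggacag
Col1a2: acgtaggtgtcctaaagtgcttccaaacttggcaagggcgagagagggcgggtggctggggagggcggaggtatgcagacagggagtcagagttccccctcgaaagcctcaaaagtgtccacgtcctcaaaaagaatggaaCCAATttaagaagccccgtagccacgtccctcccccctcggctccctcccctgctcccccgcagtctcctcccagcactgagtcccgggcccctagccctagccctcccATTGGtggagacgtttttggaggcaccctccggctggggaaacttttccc

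Entries were found for 7 of the 10 genes. The Postn start shown has TATAAA with its first base at position -26 from the start, and the sequence of Col3a1, not shown, has it at -117, while TATAAA occurs in 13.6% of 32851 promoters of the same length. Col1a2 has CCAAT in both orientations, a pentamer found in 37.4% of them, and the other Postn start has it on the opposite strand. Sparc and Fbn1 hold neither motif in this window. The CG dinucleotide, the site of DNA methylation and a feature of many promoters bound by PRC2, occurs 14 times in Fbn1, 13 times in Col1a2, 5 times in the Postn sequence and 4 times in Sparc, against a median of 7 over all promoters.

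Collagen I is a triple helix built from the chains that Col1a1 and Col1a2 encode. The log2 ratios of Col1a1 were -6.00, -6.23, -6.10 and -6.07 in EED cKO replicates 1 to 4 and -5.97, -5.94, -6.13 and -6.20 in control replicates 1 to 4. Col1a2 had -4.84, -4.48, -4.82 and -4.36 in EED cKO and -4.74, -4.41, -5.14 and -4.70 in control. The genotypes overlapped for both genes, and the lowest Col1a2 value was that of control replicate 3. The difference for Col1a1 was -0.04 (SE 0.08, 95% interval -0.23 to 0.15, adjusted p = 0.780, limma), with a sign that turned in the sample channel alone (0.02). That for Col1a2 was 0.12 (SE 0.10, interval -0.11 to 0.35, adjusted p = 0.431). These intervals leave out a 1.5-fold change in either direction.

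Collagen III, encoded by Col3a1, is the second fibrillar collagen of skin, and collagen VI, of which Col6a1 encodes 1 chain, forms beaded filaments around cells. Col3a1 had log2 ratios of -4.48, -4.21, -4.18 and -4.26 in EED cKO and -3.97, -4.05, -4.19 and -4.20 in control replicates 1 to 4. For Col6a1 they were -2.53, -2.41, -2.34 and -2.27 in EED cKO and -2.51, -2.57, -2.61 and -2.64 in control. Col3a1 had its lowest value in EED cKO replicate 1, and only EED cKO replicate 1 kept the genotypes of Col6a1 from separating. Col3a1 differed by -0.18 (SE 0.09, interval -0.38 to 0.02, adjusted p = 0.186, limma). Col6a1 differed by 0.19 (SE 0.08, interval 0.02 to 0.37), which did not pass adjustment over all targets (adjusted p = 0.104).

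Decorin, the product of Dcn, and lumican, the product of Lum, are both small leucine-rich proteoglycans. Dcn had log2 ratios of 1.59, 1.55, 1.65 and 1.67 in EED cKO and 2.13, 1.91, 1.63 and 1.62 in control replicates 1 to 4. The EED cKO arrays lay close together (SD 0.05, n = 4) and the control arrays were spread (SD 0.24, n = 4), with replicates 1 and 2 above all EED cKO arrays and replicates 3 and 4 among them. Dcn differed by -0.21 (SE 0.11, interval -0.46 to 0.05, adjusted p = 0.227, limma).

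Lum had log2 ratios of -0.49, -0.22, -0.41 and -0.46 in EED cKO and -0.66, -0.83, -1.14 and -0.97 in control replicates 1 to 4. All 4 EED cKO arrays were above all 4 control arrays. The difference was 0.50 (SE 0.11, 1.42-fold, adjusted p = 0.0121, limma), and the two-sided exact permutation test gave p = 0.0286, its smallest possible value with 4 arrays a genotype. The call held with each array left out in turn (adjusted p of at most 0.0372). With the Feature Extraction log ratio the difference was 0.82. The call was lost with median centring in place of loess (0.37, adjusted p = 0.0823) and without the control arrays that carried Y-linked RNA (0.42, adjusted p = 0.0642). It was also lost by the methods' t-test after Benjamini-Hochberg adjustment (adjusted p = 0.0745) and in limma within the Cy3 arrays (0.45, adjusted p = 0.228).

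Fibrillin-1, the product of Fbn1, forms the microfibrils on which elastin is laid down. Fbn1 had log2 ratios of -3.58, -3.40, -3.61 and -3.18 in EED cKO and -3.65, -3.82, -3.79 and -3.74 in control replicates 1 to 4. EED cKO was above control on all arrays, by 0.30 (SE 0.10, 1.23-fold, adjusted p = 0.0487, limma; exact permutation p = 0.0286). The probe was dim, being well above background on 3 of 4 EED cKO and 2 of 4 control arrays, so that it entered the test through EED cKO alone. The call was lost in 9 of 14 other ways of processing the arrays, with adjusted p up to 0.301. Among the 8 fits with 1 array left out, it was lost in 7, with adjusted p up to 0.149. Of those 8 fits, it held only in the one without control replicate 1.

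Periostin, the product of Postn, is a secreted protein that binds integrins and collagen and is abundant in the connective tissue next to basement membranes. Postn had log2 ratios of 4.10, 4.03, 3.80 and 3.77 in EED cKO and 4.77, 5.26, 4.34 and 5.22 in control replicates 1 to 4. All EED cKO arrays were below all control arrays, and control replicate 3 was the closest to them. The difference of -0.98 (SE 0.16, interval -1.34 to -0.61, 1.97-fold lower, adjusted p = 0.00387, limma; exact permutation p = 0.0286) was just short of 2-fold. It held with each array left out (-1.13 to -0.85), and passed 2-fold without EED cKO replicate 1 or without control replicate 3. Within the arrays with the sample in Cy3 it was -0.61 (adjusted p = 0.146) and within those in Cy5 it was -1.34 (adjusted p = 0.00675). The call was lost with the methods' t-test after Benjamini-Hochberg adjustment and held in limma without the dye term (adjusted p = 0.0134), with the same difference of -0.98 in both. The Postn mRNA has several splice forms, which 1 probe cannot tell apart.

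Sparc encodes osteonectin, a secreted protein that binds collagen and calcium. Its brightest probe, used here, had log2 ratios of -2.01, -1.81, -2.38 and -1.88 in EED cKO and -1.78, -1.24, -1.95 and -1.23 in control replicates 1 to 4. The genotypes overlapped over the 8 arrays, and within each dye both EED cKO arrays were below both control arrays. The difference was -0.47 (SE 0.10, 1.39-fold lower, adjusted p = 0.0109, limma with the dye as a covariate), whereas the exact permutation test, which takes no account of dye, gave p = 0.114. The call was lost without the dye term and with median centring (adjusted p = 0.137 in both), and with the ratio replaced by the sample signal (adjusted p = 0.0772). A second Sparc probe gave -0.39 (adjusted p = 0.00880), with the genotypes not overlapping. The third probe, the dimmest, gave 0.05 (adjusted p = 0.698), so the probes of this gene disagreed.

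The receptor for PDGF-A and PDGF-C, encoded by Pdgfra, marks most dermal fibroblasts and the dermal condensate of the hair follicle. Pdgfra had log2 ratios of -4.18, -4.41, -4.11 and -4.11 in EED cKO and -4.07, -4.45, -4.35 and -4.45 in control replicates 1 to 4. The genotypes overlapped, with the highest value in control replicate 1. The difference of 0.13 (SE 0.09, interval -0.08 to 0.34, adjusted p = 0.358, limma) turned to -0.14 with the Feature Extraction log ratio and to -0.04 with median centring. Its ligand genes Pdgfa (-0.39, adjusted p = 0.0662) and Pdgfc (-0.34, adjusted p = 0.0557) did not pass the test. Pdgfb, a ligand chiefly of the other PDGF receptor, was lower (-0.48, SE 0.11, adjusted p = 0.0166), and Pdgfrb, which encodes that receptor, was not above background.

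**Figure D2:**
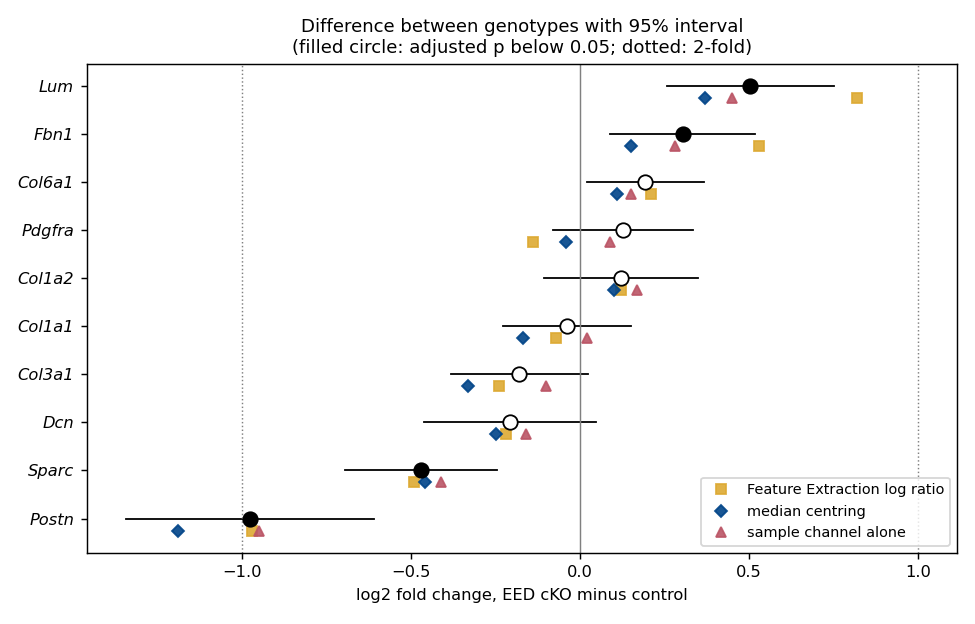
Log2 fold change of each dermal matrix gene, EED cKO minus control (horizontal axis), with its 95% interval and, as small symbols, the value under 3 other scalings. Filled circles mark adjusted p below 0.05. Postn lies at -0.98, Sparc at -0.47, Fbn1 at 0.30 and Lum at 0.50, and Pdgfra changes side with the scaling.

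The genes were then compared in how they varied among arrays of 1 genotype. After subtraction of each genotype mean, 34 of the 45 pairs of genes had a positive Pearson's r over 8 arrays and 11 a negative one, with a median r of 0.27 and a range from -0.60 to 0.82. The permutation test within genotype gave an unadjusted p below 0.05 for 3 pairs, and 0 passed Benjamini-Hochberg adjustment over 45 pairs (smallest adjusted p = 0.435). The number of positive pairs was 41 with the dye removed as well and 45 with median centring. With the dye removed, each mean is taken over 2 arrays, whose deviations are then equal and opposite. Such r values rest on fewer independent values than arrays and are easily extreme. All genes of 1 array share its labelling, dye and normalization, and the part of these in the correlations was not tested. The share of positive pairs among other genes was not measured. The counts are therefore not shown to be particular to the dermal matrix genes.

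The most correlated pair was Sparc and Postn, both lower in EED cKO (r = 0.82, permutation p = 0.0590; Spearman's rho = 0.76, permutation p = 0.148; r = 0.69 without the 2 arrays farthest from the median of Sparc), and r was 0.83 with the dye removed. Col3a1 and Col6a1 followed (r = 0.80, permutation p = 0.0399; rho = 0.74, permutation p = 0.0712), but r was 0.40 without the 2 farthest arrays. Col1a2 and Sparc had r = 0.79 (permutation p = 0.0243; rho = 0.76, permutation p = 0.0556; r = 0.60 without the 2 farthest), but 0.23 with the dye removed. Col6a1 and Dcn had the smallest permutation p, 0.0156 (r = 0.57, with rho = 0.74 and permutation p = 0.031 for rho). For Col6a1 and Dcn, r was 0.92 without the 2 farthest arrays and 0.63 with the dye removed. Like every pair, they did not pass adjustment (adjusted p = 0.435). Pdgfra and Sparc had the lowest r, -0.60, which was 0.03 with the dye removed. The highest r with the dye removed was that of Col1a2 and Dcn, 0.99, which was 0.35 before. Col1a1 and Col1a2, whose products share a molecule, had r = 0.17, which became 0.86 with the dye removed. The values with the dye removed rest on mirrored pairs of arrays, were not tested, and are given as description only.

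**Figure D3:**
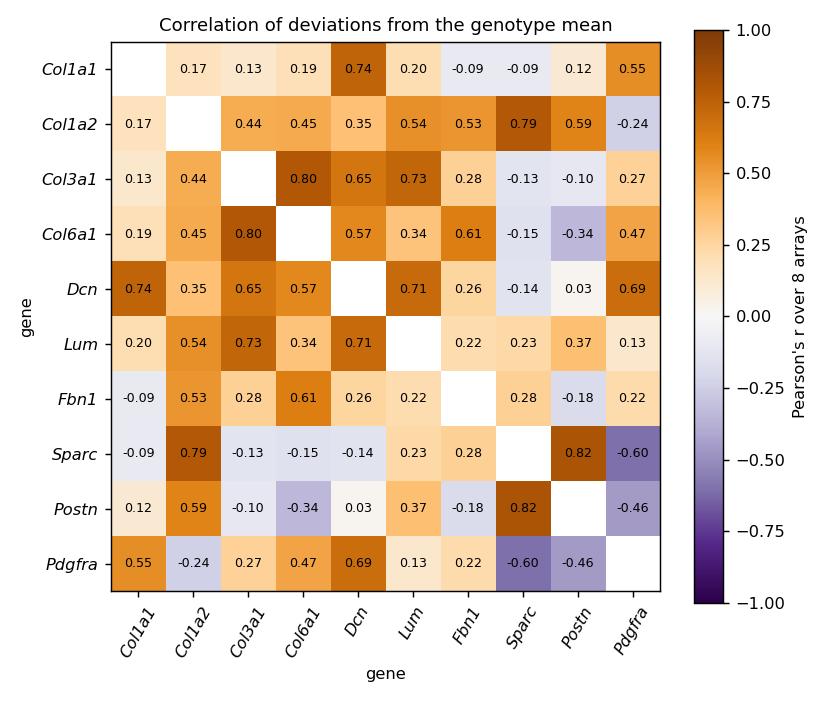
Pearson's r over 8 arrays between the dermal matrix genes (both axes) after subtraction of each genotype mean. The collagen genes Col1a1, Col1a2, Col3a1 and Col6a1 and the proteoglycan genes Dcn and Lum have positive r with each other. Sparc with Postn has the highest value, 0.82.

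Control replicate 3 had the lowest mean deviation over the 10 genes, -0.20 from the control mean, and the lowest control value for 4 of them, while control replicate 4, with a mean deviation near 0, had the lowest value for 5. Control replicate 2 deviated by 0.12 and control replicate 1 by 0.08, and replicate 1 had the highest control value for 6 genes. The EED cKO arrays deviated by -0.06 to 0.08. The gap between the lowest and the highest of these array means was thus wider in control than in EED cKO, and no gene had an array that stood apart from the other 3 of its genotype by Dixon's test.

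**Figure D4:**
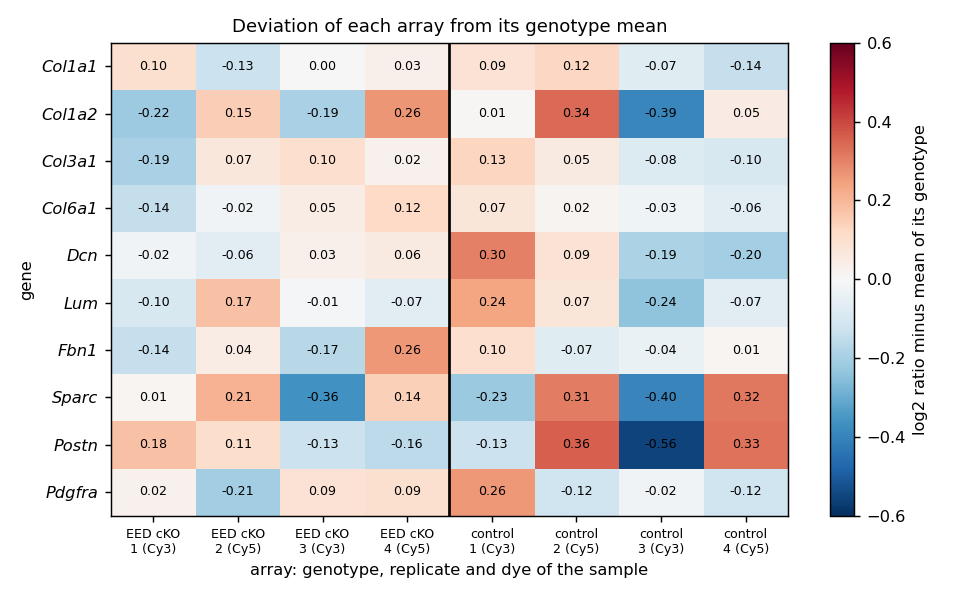
Deviation of each array (columns, with genotype, replicate and dye of the sample) from the mean of its genotype for the 10 dermal matrix genes (rows), in log2 units. Control replicate 3 reaches -0.56 for Postn and -0.40 for Sparc, and control replicate 1 reaches 0.30 for Dcn.

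Over 14926 genes with a symbol, those whose deviations were most like the mean of the dermal matrix genes were Osbpl8 (r = 0.98), Creb1 (0.97), Prss50 (0.95), Duxbl1 (0.95), Prkd3 (0.95), Ywhae (0.95), Rtf2 (0.94), Wnt16 (0.94), Pard6b (0.94) and H2az1 (0.94). None of these 10 is in any matrix or marker list used here. The values are given as a description over 8 arrays, with no test.

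Other genes of the matrix were then read in 8 lists that hold none of the 10 genes above. Of 88 genes, 71 were tested, and 25 were called (35.2%), 13 higher and 12 lower, beside 21.7% of all tested. Their median log2 fold change was 0.05. With the Feature Extraction log ratio 15 were called, and with median centring 12.

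Among 6 other fibrillar and fibril-associated collagens tested, 1 was called, Col5a2, a chain of the collagen V that nucleates fibrils, which was lower (-0.55, SE 0.11, adjusted p = 0.00714, limma). The partners of Col6a1 in collagen VI, Col6a2 (0.09, adjusted p = 0.488) and Col6a3 (-0.13, adjusted p = 0.433), were not called, and Col6a5 and Col6a6 were not above background. The other small leucine-rich proteoglycans Fmod (0.71, adjusted p = 0.00363) and Bgn (0.40, adjusted p = 0.0476) were higher, like Lum, though Bgn was not called with median centring or the Feature Extraction log ratio. Ogn was the third of that list tested (0.16, adjusted p = 0.235). Of 14 elastic fibre genes, 5 were called. The fibulin genes Fbln1 (-0.64) and Efemp1 (-0.51) and the TGF-beta binding protein gene Ltbp4 (-0.45) were lower, and Fbln2 (0.42) and Loxl1 (0.27), an elastin cross-linking enzyme, were higher. With median centring Fbln1 and Ltbp4 were called, and neither higher gene was.

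Of 12 other matricellular and adhesive matrix genes, 7 were called. Ccn2 (1.15, SE 0.15, adjusted p = 0.00124) and Ccn1 (0.78), both known targets of YAP signaling, Thbs2 (0.46) and tenascin C (Tnc, 0.38) were higher. Thrombospondin 1 (Thbs1, -0.89), fibronectin (Fn1, -0.56) and versican (Vcan, -0.43) were lower. With median centring Ccn2 and Vcan were called and the other 5 were not. Ccn2 was the 1 gene of the 8 lists that was called and changed at least 2-fold.

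Of 22 collagen folding and processing genes, the collagen-modifying genes Plod2 (0.45), P3h4 (0.40) and Pcolce2 (0.24) were higher and Crtap (-0.43) and Adamts14 (-0.64) lower. Of 9 collagen turnover genes, the protease genes Mmp2 (-0.37) and Fap (-0.62) were lower, and the inhibitor genes Timp2 (0.53) and Timp3 (0.67) were higher. With median centring, Pcolce2, P3h4, Mmp2, Timp2 and Timp3 kept their sign and were not called.

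**Figure D5:**
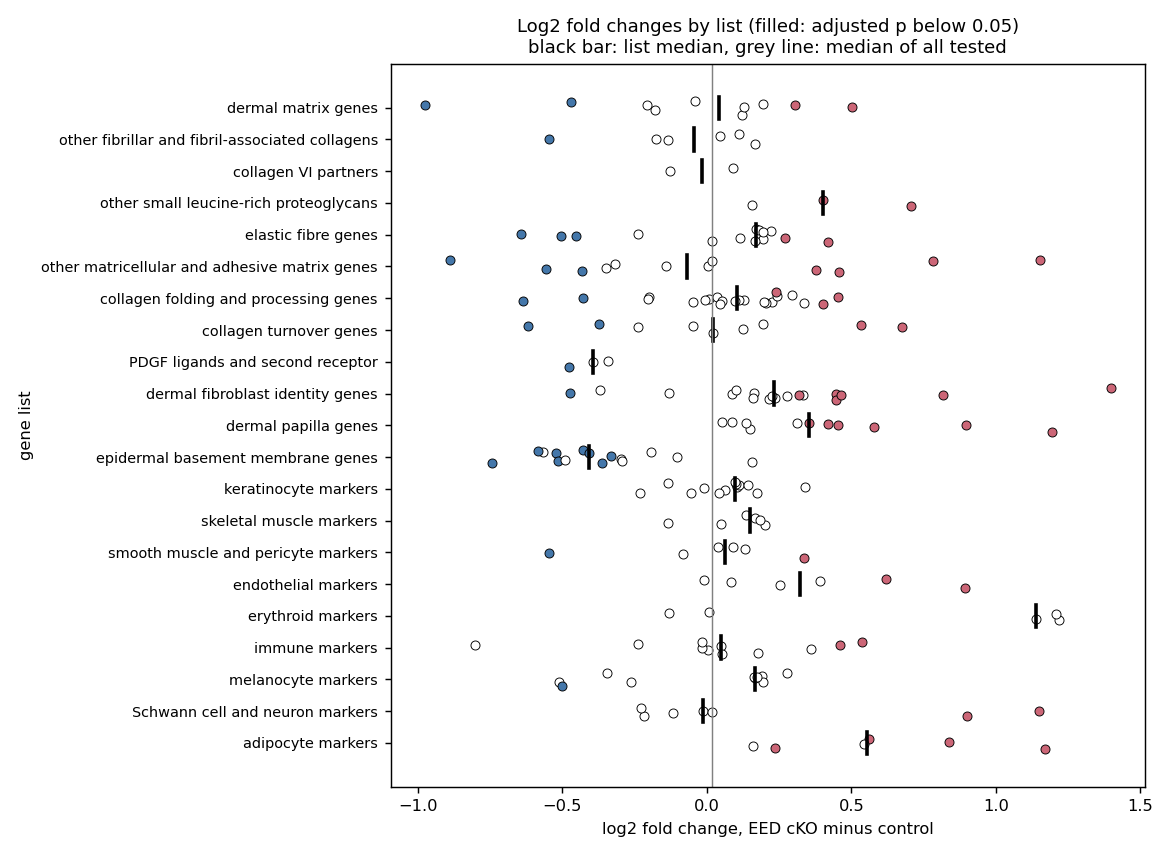
Log2 fold change, EED cKO minus control (horizontal axis), of the tested genes of each list (rows). Red and blue points have adjusted p below 0.05, black bars are list medians and the grey line is the median of all tested, 0.02. The dermal matrix genes spread to both sides of it, from -0.98 to 0.50.

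Genes of the cell types that could carry these transcripts were read beside them. Of 18 dermal fibroblast identity genes tested, 6 were higher, against 11.8% of all tested, and 1 lower, against 9.93%. Their median was 0.23. With median centring 2 were higher and the median was 0.08. The largest differences were in the transcription factor gene Tbx15 and in Ly6a (0.82, adjusted p = 0.00134), which encodes the surface protein Sca-1. Tbx15 differed by 1.40 (SE 0.10, adjusted p = 4.593e-05, limma), or by 3.89 with the Feature Extraction log ratio. It was well above background on 4 EED cKO and 2 of 4 control arrays, so it entered the test through EED cKO alone. Dlk1 (0.45) and Meox1 (0.46) were also higher, and Lrig1, which epidermal stem cells express too, was lower (-0.47). The 11 genes not called included Twist1 (0.16), Twist2 (0.16), Prrx1 (0.09), Prrx2 (0.22), Cd34 (0.10), Thy1 (-0.13) and Vim (-0.37). The mean log2 ratio of the 18 genes tested was -2.52 to -2.42 on the EED cKO arrays and -2.76 to -2.67 on the control arrays. Both this mean and the count of 6 higher include Tbx15. Neither was computed without it, and the mean was not computed with median centring. En1, Pi16, Meox2 and Sfrp4 were not above background.

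Of 11 dermal papilla genes tested, 6 were higher, against 11.8% of all tested. Their median was 0.35, and 0 were lower (0 also at an unadjusted p below 0.05). With median centring 3 were higher and the median was 0.18. The largest were the transcription factor gene Trps1 (1.19, SE 0.10, adjusted p = 0.000118), the Wnt inhibitor gene Wif1 (0.90) and Bmp4 (0.58), and the defining genes Corin, Itga8 and Sox18 were not above background. The mean log2 ratio of the list was -0.69 to -0.59 in EED cKO and -1.15 to -0.96 in control. Hair follicle keratinocytes also express some of these genes. The dermal matrix genes themselves had a mean log2 ratio of -2.25 to -2.12 in EED cKO and -2.33 to -2.01 in control, ranges that overlapped. The part of a different share of dermal cells in the calls of the 10 genes was not tested.

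At the border to the dermis, 8 of 15 epidermal basement membrane genes were lower, against 9.93% of all tested. Their median was -0.41, and 0 were higher (0 also at an unadjusted p below 0.05). With the Feature Extraction log ratio or with median centring 4 were lower. The 8 genes included the integrin genes Itga6 (-0.74) and Itgb4 (-0.51), Fras1 (-0.58) and the laminin gene Lama3 (-0.52). Col17a1, also among the 8 (-0.33, adjusted p = 0.0483, limma), turned to 0.23 with the Feature Extraction log ratio, where it was not called (adjusted p = 0.156). Markers of other cells that a peel can hold were read beside the 21.7% called among all tested. Endothelial genes were higher for 2 of 6 tested (Pecam1, 0.89 and Kdr, 0.62) while Cdh5 and Tie1 were not above background, and adipocyte genes for 4 of 6 (among them Fabp4, 1.17 and Lpl, 0.84) while Adipoq was not above background. Smooth muscle and pericyte genes gave 1 lower (Notch3, -0.55) and 1 higher of 6 (Cnn1, 0.34), the latter a dim probe that entered the test through EED cKO alone, well above background on 3 EED cKO and 2 control arrays. There were 2 higher of 11 immune genes (Cd3e, 0.54 and Cd74, 0.46), 2 higher of 7 Schwann cell and neuron genes (Tubb3, 1.15 and Pmp22, 0.90) and 1 lower of 10 melanocyte genes (Sox10, -0.50). The shares called among immune (18.2%) and melanocyte genes (10.0%) were not above the 21.7% of all tested. With median centring Cnn1, Cd74, Sox10, Fabp4 and Lpl were not called, and 1 adipocyte gene was. No skeletal muscle gene of 6 and no erythroid gene of 5 was called, although the haemoglobin genes Hba-a1 (1.21, adjusted p = 0.116) and Hba-a2 (1.14, adjusted p = 0.0985) varied widely between arrays. Whether RNA of these cells has a part in the values of the dermal matrix genes was not tested.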

How the data were processed

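RNA of 4 EED cKO and 4 control samples was hybridized against Universal Mouse Reference RNA. The authors deposited, per the file headers, the Agilent Feature Extraction (version 12.0.1.1) intensity of each spot and its local background for both channels, not normalized between dyes, and the software's log10 ratio (Cy5 over Cy3), which is already background subtracted and dye normalized. A table of log2 ratios was deposited too, which lay within 7.326e-06 of the ratios of the processed signals for 55249 single-spot probes, with the swapped arrays turned.

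Here median spot intensities were background corrected (normexp, offset 50), each array was normalized by loess, control spots and outlier spots were left out, and all ratios were expressed as sample over reference. The offset shrinks the ratios of dim spots toward 0. Probes were named through RefSeq accessions (28026 of 29796 matched, GRCm38.p6). No coordinates of probes are given, since the array was annotated on another build. A gene was represented by its probe of highest mean signal, and tested where that probe was flagged as well above background, in the channel of the sample, on 3 or 4 arrays of either genotype. A probe with several spots counted as such where most of its spots were. The comparison of genotypes used limma 3.58.1 in R 4.3.3, with dye orientation as a covariate in lmFit, then eBayes, and Benjamini-Hochberg adjustment over 23139 targets, with 19 missing values left missing. The number of arrays limits the precision. The fit was tested on simulated data.

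The 10 genes, the other lists and the tests were chosen with earlier results of these data known. From each other list the text names genes with adjusted p below 0.05, at most the 4 largest per direction, or the 2 of lowest p where none passed; list genes named beyond that were chosen after their values were seen, and the keratinocyte and skeletal muscle genes are given only as counts. A further list gene that this rule would take is not reported here. The promoter motifs and the Y-linked check were also chosen after the data were seen.

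Same-numbered samples deviated together (r = 0.49, 0.68, 0.33 and 0.36 over genes, and 0.13 and 0.46 with the dye removed). The number also marks the dye and the column of the slide, and the labels do not say what else it stands for. The labels and the methods give different times in dispase and trypsin.

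Alternatives were the deposited log2 table, the Feature Extraction log ratio, median centring, no background correction, Aquantile, the sample channel alone, other filters and probe rules, no dye term, an intensity trend, array weights, a replicate block, the methods' t-test and each array left out. Fits within each dye and without the control arrays that carried Y-linked RNA were added after seeing the data.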

Additional observations from a re-analysis of the deposited data

How the results depend on the processing

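The number of the 10 genes called, 4, was 1 with median centring, 2 in the sample channel alone, 2 without the dye term, 0 by the methods' t-test after Benjamini-Hochberg adjustment (4 at an unadjusted p below 0.05, 3 higher and 1 lower, with Col6a1 among them and Sparc not), 0 within the Cy3 arrays and 2 without the control arrays that carried Y-linked RNA, and 3 or 4 under the other alternatives. Leaving out 1 array gave 3 to 4. The number called and changed 2-fold, 0, was 1 with median centring, within the Cy5 arrays and without the control arrays that carried Y-linked RNA, each time Postn, and 0 to 1 with 1 array left out. The 25 calls among the other matrix lists became 15 with the deposited log2 table, 15 with the Feature Extraction log ratio and 12 with median centring. The sign of Col1a1 reversed in the sample channel alone (0.02), was 0 within the Cy3 arrays, and ranged from -0.08 to 0.02 with 1 array left out. Sparc reversed with its dimmest probe (0.05), and Pdgfra with the deposited log2 table (-0.13), the Feature Extraction log ratio (-0.14) and median centring (-0.04). The cause was not tested. With the replicate number as a block, 4 genes were called and 0 at 2-fold, and no call among the 10 changed. Of all calls, 54.3% were higher in EED cKO and 39.7% with median centring, which moved the median of all targets from 0.02 to -0.04. Calls over all targets fell from 5024 to 2554 with median centring, 2358 without the dye term, 913 by the adjusted t-test and 496 within the Cy3 arrays. Aquantile leaves ratios as they are. Signal over background was low for Fbn1 (median spot intensities of the sample from 38 to 55.5), Pdgfra (43.7 to 67.8) and Lum (66 to 123), over a local background of 20 to 25.3.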
